A study of Mus musculus with 6 samples.

Results

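10 genes of the T helper 1 (Th1) programme were examined in activated mouse CD4+ T cells: the transcription factor genes Tbx21, Eomes and Hlx, the IL-12 receptor genes Il12rb1 and Il12rb2, the IL-18 receptor genes Il18r1 and Il18rap, the interferon gamma receptor genes Ifngr1 and Ifngr2, and the kinase gene Txk. They were chosen by name, and all 10 had a line among the 55401 genes of the count tables. RNA sequencing compared cells of Satb1 flox/flox CD4-Cre mice, a Satb1 conditional knockout called Satb1 cKO here (3 libraries), with cells of control mice, whose genotype is labelled WT (3 libraries). In both groups naive CD4+ cells were enriched from spleen on magnetic beads and stimulated through CD3 and CD28 for 24 h before RNA was taken. Cre driven by Cd4 sequences acts from the thymus onward and also in cells that later become CD8+ T cells. The labels give neither the age of the mice nor whether the controls carried Cre or the floxed allele. Nothing in them says that replicate libraries stem from different animals, and the p-values therefore cover only the variation among these samples, possibly technical in origin.

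Th1 cells are the CD4+ T cells that make interferon gamma. T cell receptor signals and interferon gamma induce Tbx21, whose product T-bet in turn promotes Il12rb2. IL-12 then signals through STAT4, and together with IL-18 it drives interferon gamma production. SATB1 organises chromatin in T lineage cells by binding to AT-rich stretches of DNA.

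Libraries held 16621609 to 19023023 reads on genes in Satb1 cKO and 14895389 to 20266626 in control. Levels are given in CPM, read counts relative to library sizes that were scaled by the trimmed mean of M values (TMM). Satb1 stood at 426, 546 and 462 CPM in Satb1 cKO and at 712, 851 and 727 CPM in control, with a log2 fold change of -0.68 (SE 0.0866). These counts cover the whole gene and do not measure how complete the deletion was. The T cell genes Cd3d, Cd3e and Cd3g stood between 134 and 151 CPM in every Satb1 cKO library and between 145 and 168 CPM in every control library, and Cd4 stood at 204 to 212 CPM and 681 to 721 CPM. Of 10 tested alpha-beta T cell markers, 1 was higher and 7 were lower in Satb1 cKO, beside 21.6% and 20.7% of all tested genes. The sum of these markers was 2159 to 2229 CPM in Satb1 cKO and 2832 to 2930 CPM in control. It includes Cd4, whose fall makes up most of this difference.

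Control replicate 1 stood apart from the other control libraries in genes that respond to interferon gamma, among others. This touches most of the results that follow. Each of the 9 genes with enough reads to be tested was lowest, among the control libraries, in control replicate 1, whereas 36.3% of all 13364 tested genes were lowest there. For Tbx21 that library held 0.254 times, and for Il12rb2 0.216 times, the mean of control replicates 2 and 3. Of 11974 tested genes with a mean of at least 1 CPM in control, 0.752% were at or below 0.5 by the same measure. By that measure 15 genes were at or above 2. Over 22 listed interferon gamma target genes, chosen like all lists here with earlier results of these data known, the summed level was 2097 CPM in control replicate 1, against 3956 and 3968 CPM in control replicates 2 and 3. The same sum was 4495 to 4666 CPM in Satb1 cKO. Results are therefore given with all 6 libraries and, where it matters, without control replicate 1. As that library stood out by its own values, leaving it out narrows the spread among controls. The errors and p-values without it are therefore likely too small and show only how the difference moves.

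**Figure D1:**
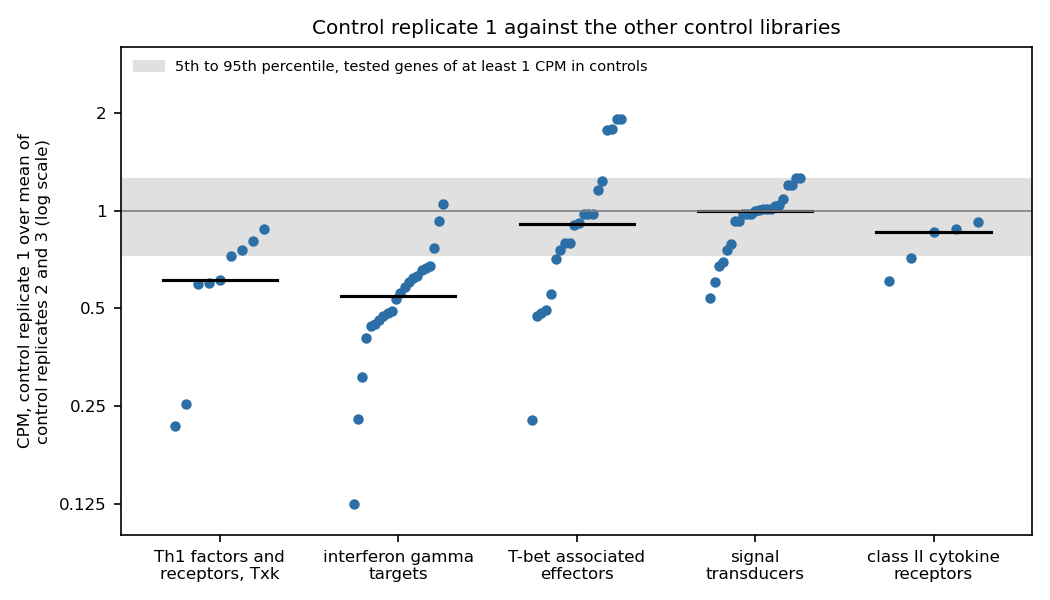
Ratio of the level in control replicate 1 to the mean of control replicates 2 and 3 (log scale) for the tested genes of 5 lists, 1 point a gene, with the list median as a bar. The grey band spans 0.728 to 1.25, the 5th to 95th percentile of 11974 tested genes, and the points of Il12rb2 (0.216) and Tbx21 (0.254) lie far below it.

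Of the 9 tested genes, 7 were higher in Satb1 cKO (Tbx21, Eomes, Il12rb1, Il12rb2, Il18r1, Il18rap and Ifngr1) and 2 were lower (Ifngr2 and Txk). The call rested on an adjusted p under 0.05 in edgeR's quasi-likelihood test, fitted and adjusted over all tested genes. The background is high: 42.3% of the 13364 tested genes were called, 21.6% higher and 20.7% lower. In all 9 genes the groups did not overlap, which held for 53.4% of tested genes. The median log2 fold change of the 9 genes was 1.13, against 0.0034 over all tested genes, and the median size of change was 1.13, against 0.22. Without control replicate 1 the same 9 genes were called in the same directions, with a median of 0.85, beside 42.5% of all genes tested in that fit (21.1% higher and 21.4% lower). In bulk RNA, fewer cells of a type and less RNA per cell cannot be told apart.

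**Figure D2:**
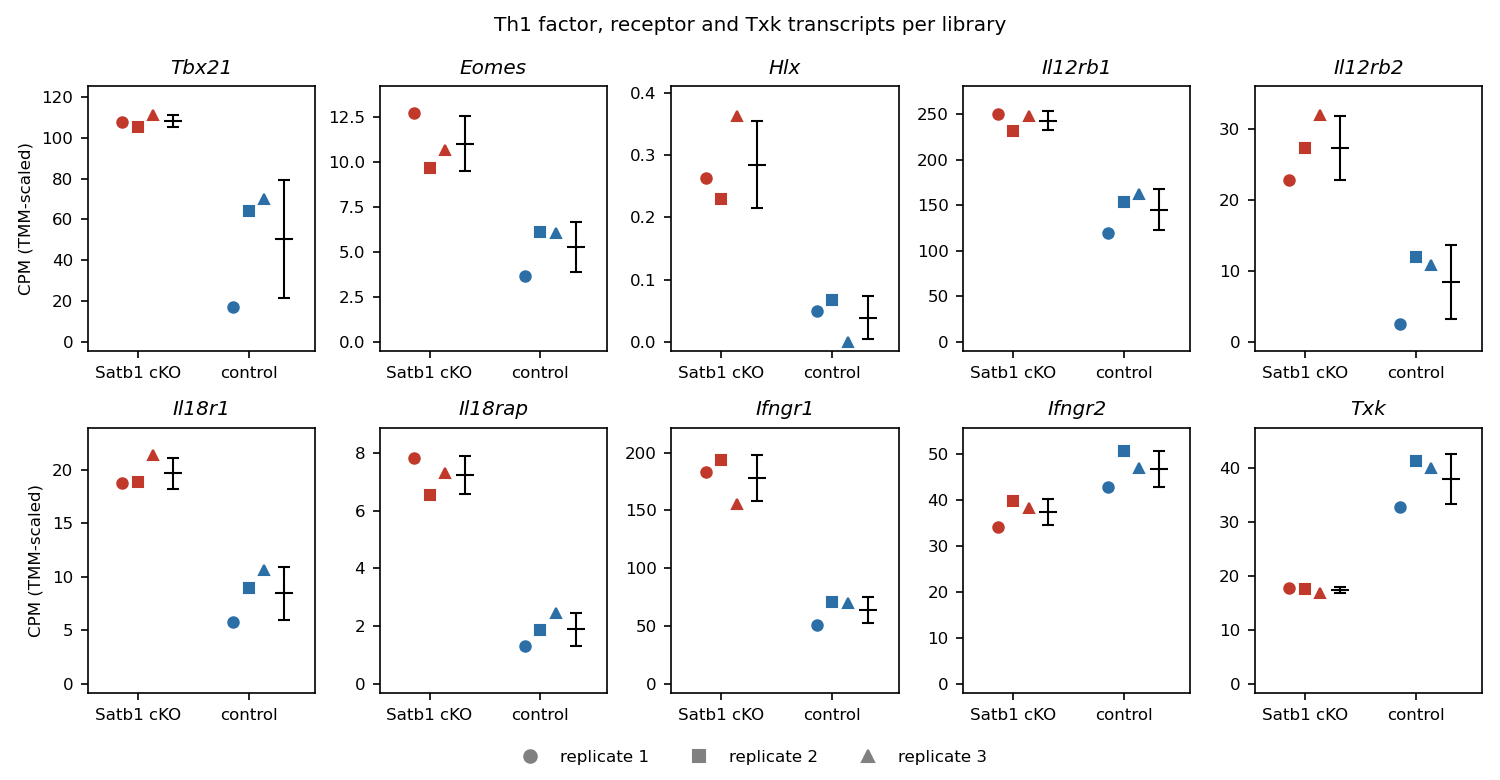
CPM of the 10 genes in each Satb1 cKO and control library (linear axes), with symbols for replicate numbers and the mean ± SD (n = 3) beside the points. The panels of 7 tested genes show Satb1 cKO above control, Ifngr2 and Txk show it below, and the lowest control point of Tbx21 is replicate 1 at 17.0 CPM.

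The 250 bases before the RefSeq start sites (GRCm38.p6) are shown for Tbx21 and Il12rb2, whose levels shared the low control replicate 1, and for Ifngr1, which rose with the smallest p of the 10 genes. Capitals mark a match to the interferon gamma-activated sequence (GAS), an element found near genes that respond to interferon gamma.
Tbx21 (chr11:97115332-97115581, minus strand): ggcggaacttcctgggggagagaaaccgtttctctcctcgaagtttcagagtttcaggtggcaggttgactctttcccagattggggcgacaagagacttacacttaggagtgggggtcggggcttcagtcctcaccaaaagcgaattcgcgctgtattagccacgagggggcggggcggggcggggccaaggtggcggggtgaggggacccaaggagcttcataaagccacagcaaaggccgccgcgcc
Il12rb2 (chr6:67376189-67376438, minus strand): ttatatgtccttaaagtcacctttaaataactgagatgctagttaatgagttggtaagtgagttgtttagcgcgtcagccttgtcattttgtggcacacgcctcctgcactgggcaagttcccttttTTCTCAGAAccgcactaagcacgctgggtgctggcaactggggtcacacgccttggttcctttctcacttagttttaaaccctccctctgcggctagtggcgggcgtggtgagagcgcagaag
Ifngr1 (chr10:19591699-19591948, plus strand): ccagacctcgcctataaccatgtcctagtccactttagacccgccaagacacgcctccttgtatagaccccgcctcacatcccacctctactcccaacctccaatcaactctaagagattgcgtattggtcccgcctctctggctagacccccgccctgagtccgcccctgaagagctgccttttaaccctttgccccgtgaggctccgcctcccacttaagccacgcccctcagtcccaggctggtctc
The Il12rb2 window held a GAS match that begins 123 bases before the start, and the windows of Tbx21 and Ifngr1 held none. The motifs searched on both strands were GAS (TTCNNNGAA), a T-box core (GGTGTGA), a RUNX site (TGTGGTT) and an AP-1 site (TGANTCA). They occur in 7.02%, 3.33%, 4.40% and 6.75% of 32851 windows of this length. Of 12 windows of 9 of the genes, 2 held GAS (Il12rb2 and an inner start of Il18r1), 1 held RUNX (an inner start of Txk), and 0 held the T-box core or AP-1. Il12rb1 was not matched. A match is a run of letters, not evidence of binding.

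Tbx21 encodes T-bet, the T-box factor that defines the Th1 fate. Its gene (ENSMUSG00000001444.2) lies on the minus strand of chromosome 11. Tbx21 stood at 108, 106 and 111 CPM in Satb1 cKO replicates 1, 2 and 3, and at 17.0, 64.1 and 69.8 CPM in control replicates 1, 2 and 3. The Satb1 cKO libraries were all higher and lay close together (108 ± 2.95 CPM, SD), while the control libraries spread widely (50.3 ± 29.0 CPM), with replicate 1 low. On the log2 scale the difference was 1.13 (SE 0.339), with an adjusted p of 0.0191 in edgeR. Without control replicate 1 it was 0.68 (SE 0.0525, adjusted p = 1.93e-07 in edgeR), a smaller difference with a smaller error. That library was the most deviant control for Tbx21, so leaving it out lowers the error by itself. This p does not make the call firmer. The call with all libraries was not firm: without Satb1 cKO replicate 3 the adjusted p was 0.0547, and in DESeq2 it was 0.13.

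The tested genes whose profile over the 6 libraries lay nearest to that of Tbx21 were Ly6a, Il12rb2 and Tbkbp1. The measure was the root mean square distance of centred log2(CPM + 0.5) values, which was 0.23, 0.31 and 0.35, and all 3 genes share their libraries, and so the low control replicate 1, with Tbx21. Ly6a, encoding the surface protein Sca-1, stood at 221, 207 and 208 CPM in Satb1 cKO and at 47.2, 172 and 182 CPM in control. Tbkbp1, encoding an adaptor of the kinase TBK1, is the next tested gene to Tbx21 on chromosome 11 (Tbx21 at 97098071 to 97115331, Tbkbp1 at 97136171 to 97151495, GRCm38). It stood at 24.4, 19.2 and 22.8 CPM in Satb1 cKO and at 5.42, 21.2 and 21.6 CPM in control, and was not called (adjusted p = 0.281 in edgeR). Osbpl7, the tested neighbour on the other side, was not called either (log2 fold change -0.16, adjusted p = 0.13 in edgeR).

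Eomes (ENSMUSG00000032446.14, chromosome 9, 118478212 to 118486132, plus strand) encodes eomesodermin, the T-box factor more typical of CD8+ T cells and NK cells. Its counts were low, at 12.7, 9.67 and 10.7 CPM in Satb1 cKO and 3.64, 6.11 and 6.03 CPM in control. The groups did not overlap, and Eomes rose by 1.09 on the log2 scale (SE 0.19, adjusted p = 0.000817 in edgeR). Within a library, the log2 ratio of Tbx21 to Eomes was 3.25 ± 0.186 in Satb1 cKO and 2.93 ± 0.743 in control (SD, n = 3). This balance did not differ detectably (two-sided exact permutation test, p = 0.8), and without control replicate 1 the difference changed sign, to -0.11. Hlx (ENSMUSG00000039377.7, chromosome 1, 184727140 to 184732619, minus strand), a homeobox gene that cooperates with T-bet in mouse Th1 cells, was counted in 5, 4 and 6 reads in Satb1 cKO and 1, 1 and 0 reads in control. These are too few for the test. The ratio of summed reads, scaled for library size, was 7.15 with a counting interval of 1.66 to 64.5 (95%, exact, counting error only).

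Divided by full exon length, the factors and receptors covered a wide range of levels. Il12rb2 shares 1519 of its 3794 exon bases with Serbp1, a gene on the opposite strand. If reads there were dropped in counting, the values of Il12rb2 below are too low. Its place relative to Ifngr2 in Satb1 cKO and to Txk in control is therefore not settled. In Satb1 cKO the order was Ifngr1 (62.4 ± 6.99 CPM per kilobase), Il12rb1 (59.2 ± 2.53), Tbx21 (43.5 ± 1.19), Ifngr2 (9.93 ± 0.762), Il12rb2 (7.20 ± 1.19), Il18r1 (4.08 ± 0.306), Eomes (2.65 ± 0.373), Txk (1.59 ± 0.0497), Il18rap (1.07 ± 0.0971) and Hlx (0.125 ± 0.0304; all SD, n = 3). Ifngr1 and Il12rb1 were neighbours in this order that lay within their spread. In control the order was Il12rb1 (35.4 ± 5.49), Ifngr1 (22.5 ± 3.95), Tbx21 (20.2 ± 11.7), Ifngr2 (12.4 ± 1.04), Txk (3.47 ± 0.423), Il12rb2 (2.22 ± 1.37), Il18r1 (1.76 ± 0.508), Eomes (1.27 ± 0.337), Il18rap (0.28 ± 0.084) and Hlx (0.017 ± 0.0153). There Tbx21 was not separated beyond the spread from Ifngr1 or Ifngr2, and neighbours among Txk, Il12rb2, Il18r1 and Eomes overlapped in the same way. The wide spread of Tbx21 and Il12rb2 in control includes the low replicate 1. On full exon lengths, every Satb1 cKO library had Txk below Il12rb2, Il18r1 and Eomes. By the same measure every control library had Txk above Il12rb2, Il18r1 and Eomes, although its range over the libraries overlapped that of Il12rb2. The place of Txk depends on the length used, as its summed exons were the longest (10955 bases). In CPM, Txk (16.8 to 17.9) stood above Eomes (9.67 to 12.7) in every Satb1 cKO library, and below Il18r1 and Il12rb2.

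IL-12 binds a receptor of 2 chains, IL-12Rβ1, which is shared with the IL-23 receptor, and IL-12Rβ2, which recruits STAT4. The genes are Il12rb1 (ENSMUSG00000000791.9, chromosome 8, 70808449 to 70821424, plus strand) and Il12rb2 (ENSMUSG00000018341.12, chromosome 6, 67291318 to 67376188, minus strand). Il12rb1 stood at 250.1, 231 and 248 CPM in Satb1 cKO and at 119.6, 154 and 162 CPM in control. Every Satb1 cKO library was above every control library, with a log2 fold change of 0.75 (SE 0.0905, adjusted p = 6.38e-05 in edgeR). Il12rb2 stood at 22.8, 27.2 and 31.9 CPM in Satb1 cKO and at 2.46, 12.0 and 10.8 CPM in control. The groups did not overlap in this gene, whose promoter window held the GAS match, and Il12rb2 rose by 1.75 on the log2 scale (SE 0.356, adjusted p = 0.00222), or by 1.25 (SE 0.133, adjusted p = 4.74e-06 in edgeR) without control replicate 1.

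Il12rb2 shares 1519 of its 3794 exon bases with Serbp1, a gene on the opposite strand that encodes an RNA-binding protein. The strand setting of the counting is unknown, and reads in that stretch cannot be assigned with certainty. Serbp1 stood at 1559 to 1639 CPM in Satb1 cKO and 1466 to 1496 CPM in control. Its log2 fold change was 0.11, and its level in control replicate 1 (1496 CPM) was not low. Igkv9-120, the next tested gene on the other side, is an immunoglobulin segment that begins at 68049983, whereas Il12rb2 ends at 67376188. It stood at 0.63 to 1.09 CPM in Satb1 cKO and 0 to 0.0648 CPM in control. The log2 ratio of Il12rb2 to Il12rb1 was -3.42, -3.06 and -2.94 in Satb1 cKO and -5.34, -3.62 and -3.85 in control. All 3 Satb1 cKO ratios were higher, on average by 1.13, with p = 0.1 in a two-sided exact permutation test, the smallest that 3 against 3 libraries allow. Without control replicate 1 the difference was 0.59.

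Relatives of these chains moved both ways. Of 6 tested IL-12 receptor relatives, 1 rose and 4 fell (83.3% called, against 42.3% of all tested genes; median log2 fold change -0.35). Il6ra and Il6st, the IL-6 receptor chains, fell (-1.79, SE 0.06, and -1.03, SE 0.039), as did Il27ra, the IL-27 receptor chain (-0.25, SE 0.05), and Il11ra1, the IL-11 receptor chain (-0.44, SE 0.15). Csf3r, the receptor of granulocyte colony-stimulating factor and a neutrophil gene, rose (2.73, SE 0.421). The 7 other tested neutrophil markers were also higher (7 of 7, beside 21.6% of all tested genes). Il23r, the partner of IL-12Rβ1 in the IL-23 receptor, was counted in 10, 12 and 12 reads in Satb1 cKO and in 0 reads in each control library. It was not tested with all libraries. Without control replicate 1 it passed the filter and was called higher, so that 2 of 7 tested relatives rose and 4 fell. That is 85.7% called, against 42.5% of all genes tested in that fit. Taking 3 reads as the upper limit for all control libraries together, Il23r was at least 10.8-fold higher in Satb1 cKO, scaled for library size. This figure allows for counting error in control but not for that of the 34 Satb1 cKO reads.

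IL-18 binds IL-18Rα, encoded by Il18r1, and signals once the accessory chain, encoded by Il18rap, has joined. Il18r1 stood at 18.8, 18.8 and 21.4 CPM in Satb1 cKO and at 5.81, 8.93 and 10.6 CPM in control. Il18rap stood at 7.83, 6.52 and 7.30 CPM in Satb1 cKO and at 1.33, 1.88 and 2.46 CPM in control. For both genes all Satb1 cKO libraries were higher than all control libraries. The log2 fold changes were 1.24 for Il18r1 (SE 0.171, adjusted p = 0.000164) and 1.96 for Il18rap (SE 0.21, adjusted p = 2.68e-05, both in edgeR). The log2 ratio of Il18rap to Il18r1 was -1.39 ± 0.151 in Satb1 cKO and -1.89 ± 0.101 in control (SD, n = 3), a difference of 0.51 without overlap of the groups (two-sided exact permutation p = 0.1, the smallest possible).

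These genes lie side by side on the plus strand of chromosome 1, Il18r1 (ENSMUSG00000026070.15) at 40465552 to 40500854 and Il18rap (ENSMUSG00000026068.11) at 40515362 to 40551705 (GRCm38), in a cluster of IL-1 receptor family genes. Not all genes of the cluster were higher in Satb1 cKO. Il1r2, the decoy receptor of IL-1, stood at 12.2, 15.1 and 12.7 CPM in Satb1 cKO and 1.28, 1.21 and 2.20 CPM in control (log2 fold change 3.10, SE 0.201, adjusted p = 5.43e-07 in edgeR). Il1rl1, encoding the IL-33 receptor chain ST2, ends 0.137 kb before Il18r1 begins and rose (2.03, SE 0.338). Between them Il1rl2, the IL-36 receptor gene, fell to 5.94, 6.87 and 5.43 CPM in Satb1 cKO, against 12.5, 13.03 and 12.3 CPM in control (-1.05, SE 0.12), and Il1r1, the signalling IL-1 receptor, had too few reads to be tested. Mrps9, the next tested gene after Il18rap, begins far from it, at 42851233, and was not called (-0.09, adjusted p = 0.165 in edgeR). Elsewhere in the family, Sigirr, an inhibitory member, fell (-0.49, SE 0.11).

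**Figure D3:**
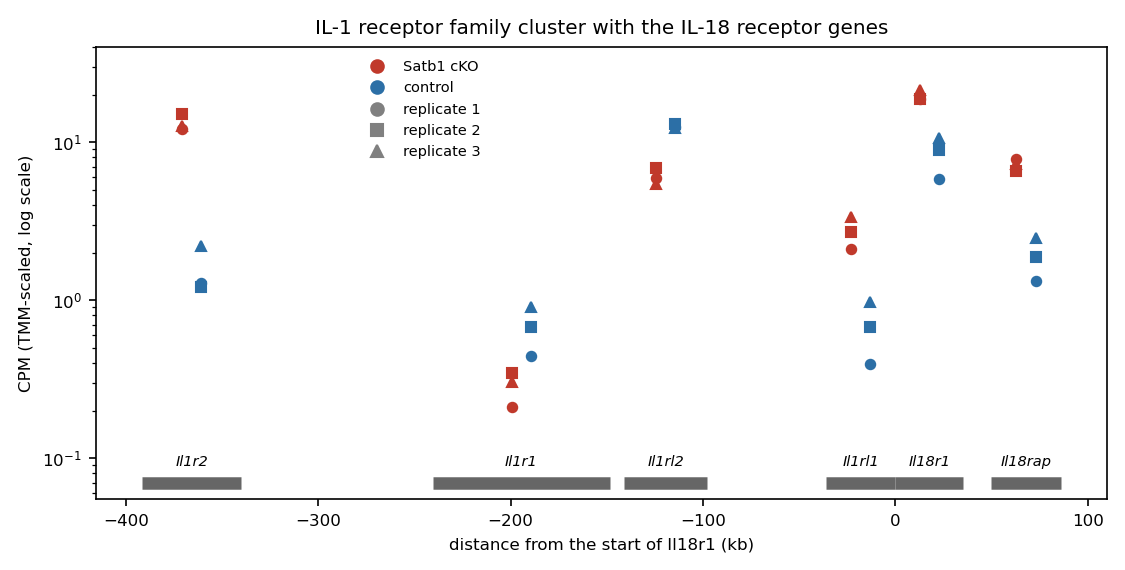
CPM (log scale) of 6 genes of the IL-1 receptor family cluster in each Satb1 cKO and control library, placed by distance in kb from the start of Il18r1, with gene extents as grey bars. Satb1 cKO points lie above control for Il1r2, Il1rl1, Il18r1 and Il18rap, and below control for Il1rl2 and the barely detected Il1r1.

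Interferon gamma binds IFNGR1, and IFNGR2 brings the kinase JAK2 to the complex. Their genes are Ifngr1 (ENSMUSG00000020009.13, chromosome 10, 19591949 to 19610229, plus strand) and Ifngr2 (ENSMUSG00000022965.8, chromosome 16, 91547072 to 91565623, plus strand). The 2 chains moved in opposite directions. Ifngr1 stood at 184, 194 and 156 CPM in Satb1 cKO and at 51.0, 70.4 and 70.4 CPM in control, so the lowest Satb1 cKO library was more than 2 times the highest control library. It rose by 1.48 on the log2 scale (SE 0.115, adjusted p = 2.17e-06), and by 1.33 (SE 0.079, adjusted p = 1.41e-08 in edgeR) without control replicate 1. Ifngr2 stood at 34.2, 39.7 and 38.3 CPM in Satb1 cKO and at 42.8, 50.7 and 46.9 CPM in control. The groups did not overlap, but by a small margin, and Ifngr2 had a log2 fold change of -0.32 (SE 0.0769, adjusted p = 0.00591 in edgeR).

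The log2 ratio of Ifngr1 to Ifngr2 within a library was 2.41, 2.27 and 2.01 in Satb1 cKO and 0.25, 0.47 and 0.58 in control. The mean difference of 1.80 is 3.47-fold on the linear scale and far exceeds the spread within either group. Its two-sided exact permutation p was 0.1, the smallest possible, and 0.133 after adjustment over the 4 ratios computed. Among 5 other tested class II cytokine receptor genes, 2 rose and 0 fell, a share near the 42.3% called over all tested genes. Il10ra, the IL-10 receptor chain, rose (log2 fold change 1.48, SE 0.14), as did Ifnar2, a type I interferon receptor chain (0.38, SE 0.065). Ifnar1, its partner, stood at 98.7 to 109 CPM in Satb1 cKO and 102 to 119.6 CPM in control. It was not called with all libraries and fell without control replicate 1 (-0.16).

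**Figure D4:**
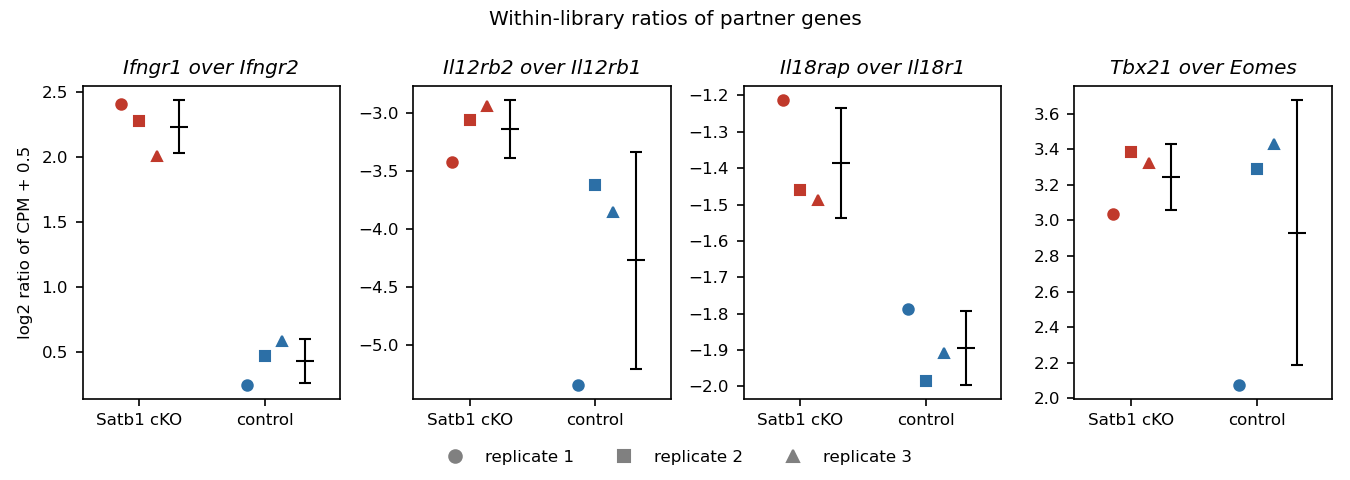
Log2 ratios of CPM + 0.5 between partner genes in each Satb1 cKO and control library, with the mean ± SD (n = 3) beside the points; the axes do not start at 0. The Ifngr1 to Ifngr2 ratios separate most (2.23 against 0.43 on average), and the Tbx21 to Eomes ratios overlap.

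Txk (ENSMUSG00000054892.14, chromosome 5, 72695978 to 72752777, minus strand) encodes a kinase of the Tec family that is found in T cells and has been tied to interferon gamma production. It stood at 17.9, 17.7 and 16.8 CPM in Satb1 cKO and at 32.7, 41.4 and 39.99 CPM in control. The Satb1 cKO libraries lay close together and all below control, with a log2 fold change of -1.12 (SE 0.0926, adjusted p = 3.74e-06 in edgeR). Tec, the family member beside Txk on chromosome 5, stood at 11.7, 10.4 and 10.7 CPM in Satb1 cKO and 7.63, 8.997 and 9.79 CPM in control, and was not called (0.32, adjusted p = 0.054 in edgeR). Nipal1, the neighbour on the other side, was not called either (0.25, adjusted p = 0.148 in edgeR). Of 9 tested Tec family kinases and partners, 0 rose and 3 fell, which at 33.3% is below the 42.3% called over all tested genes. Those that fell were Plcg1, encoding phospholipase C gamma (-0.64, SE 0.045), Lck, encoding the coreceptor kinase (-0.24, SE 0.036), and the adaptor gene Lat (-0.12, SE 0.044). The tested genes of nearest profile to Txk were Cd7, Prkcq, encoding protein kinase C theta, and Npc2, a cholesterol carrier gene, at distances of 0.036, 0.045 and 0.046 on the same log2 measure over 6 libraries.

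**Figure D5:**
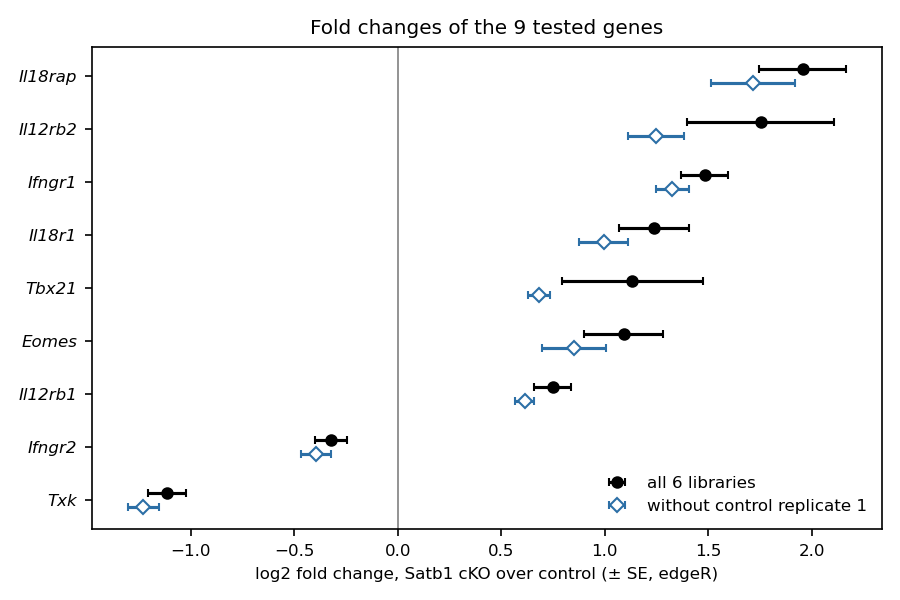
Log2 fold changes (± SE, edgeR) of the 9 tested genes, Satb1 cKO over control, with all 6 libraries (black) and without control replicate 1 (open symbols). All directions were kept, and Tbx21 and Il12rb2 moved most, to 0.68 and 1.25.

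Signal transducers of these receptors went both ways. Of 23 tested, 10 rose and 7 fell (73.9% called, against 42.3% of all tested genes). Their median log2 fold change was 0.23, and 0.06 without control replicate 1. Socs1, the feedback inhibitor of interferon gamma signalling, rose to 129, 147 and 136 CPM in Satb1 cKO, against 47.2, 76.7 and 63.4 CPM in control (1.15, SE 0.129). Gadd45b and Gadd45g, which activate p38 kinase downstream of IL-12 and IL-18, rose (0.97, SE 0.082, and 1.87, SE 0.164). Stat4, which IL-12 activates, stood at 36.9, 44.3 and 40.02 CPM in Satb1 cKO and 22.5, 27.9 and 29.2 CPM in control (0.61, SE 0.10, adjusted p = 0.000531 in edgeR). Myd88, the adaptor of the IL-18 receptor, fell (-0.43, SE 0.045), and so did Irak2 (-0.54, SE 0.08), Mapk14, encoding p38 alpha (-0.36, SE 0.044), and Jak1 (-0.26, SE 0.033).

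The interferon gamma target list depended on control replicate 1. With all libraries 8 of 22 tested genes rose and 0 fell, or 36.4% called, against 42.3% of all tested genes. Without that library 7 rose and 7 fell, or 63.6% called, against 42.5% of all genes tested in that fit, and 20 of the 22 were lowest there among the controls. Those that rose in both fits included Irf8, a transcription factor (829, 727 and 882 CPM in Satb1 cKO, against 64.7, 137 and 129 CPM in control), Cxcl10, a CXCR3 ligand (log2 fold change 3.94, SE 0.276), and the adhesion gene Icam1 (1.38, SE 0.089). Gbp2, a guanylate binding protein gene, stood at 448, 470.2 and 445 CPM in Satb1 cKO and 155, 510.1 and 499 CPM in control, and Igtp at 404, 388 and 369 CPM and 203, 453 and 454 CPM. Both lay below control replicates 2 and 3 and above control replicate 1 in every Satb1 cKO library. They fell in the fit without control replicate 1 (-0.16 and -0.24) and were not called with it.

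Listed genes that T-bet is known to promote or accompany, chosen with earlier results of these data known, were higher almost throughout. Of 20 tested, 19 rose and 0 fell (median log2 fold change 1.52), or 95%, against 21.6% of all tested genes called higher. Without control replicate 1, 19 also rose (median 1.30), against 21.1% of all genes tested in that fit. Control replicate 1, which was low in Tbx21, was the lowest control library in 11 of the 20. Relative to the mean of control replicates 2 and 3 it was at or below 0.5 for 4 genes of the list. By the same measure it was at 1.78 for Ccl3, 1.79 for Ccl4, 1.92 for Xcl1 and 1.92 for Fasl. Whether the rise of the listed genes follows Tbx21 was not tested. Ifng stood at 10.8, 6.47 and 14.003 CPM in Satb1 cKO and 0.295, 0.739 and 1.88 CPM in control. Nkg7, a granule protein gene (3.195, SE 0.119), Xcl1, a chemokine gene (5.79, SE 0.245), Id2 (1.42, SE 0.084) and Runx3 (0.98, SE 0.05), both transcriptional regulators, had the smallest p. Fasl, the exception, stood at 11.4, 9.73 and 13.9 CPM in Satb1 cKO and 16.8, 9.80 and 7.65 CPM in control.

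Of 6 tested cytokine ligand and partner genes, 2 rose, Ifng and Il23a, the IL-23 subunit gene (2.84, SE 0.383), and 0 fell. That is 33.3% called, against 42.3% of all tested genes. Il12a, Il18 and Il27 had too few reads to be tested, and Il33 was at 0 in every library. Among 11 tested lineage factors of other T helper fates and T-box relatives, 5 rose and 3 fell (72.7% called, against 42.3% of all tested genes). Foxp3, of regulatory T cells (1.48, SE 0.122), Maf (2.59, SE 0.165), Ahr (1.14, SE 0.154) and Rora (0.56, SE 0.093) rose, and Zbtb7b, of the CD4 lineage (-1.23, SE 0.065), Runx1 (-0.28, SE 0.067) and Bcl6, of follicular helper cells (-0.46, SE 0.118), fell. Gata3, of Th2 cells, stood at 25.4 to 33.3 CPM in Satb1 cKO and 31.7 to 35.7 CPM in control and was not called.

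Markers of other cell types were also examined, and many of them, but not all, differed. The counts of tested markers called higher stand beside a share of 21.6% called higher over all tested genes. Summed NK cell markers stood at 5.95 to 12.8 CPM in Satb1 cKO and 3.50 to 4.97 CPM in control (2 of 3 tested higher). Of the tested NK cell markers 0 were lower. The NK receptor gene Ncr1 was barely detected, at 0.286 to 0.368 CPM and 0.324 to 0.492 CPM, and says little in either direction. Gamma-delta T and NKT cell markers summed to 28.1 to 35.6 CPM in Satb1 cKO and 15.6 to 21.8 CPM in control (4 of 6 tested higher), and Cd8a and Cd8b1 to 22.5 to 29.6 CPM and 17.6 to 21.4 CPM (1 of 2). The median log2 fold change of Cd8a and Cd8b1 was 1.54, so at least 1 of them rose by more than their sum. Monocyte and macrophage markers summed to 52.4 to 125.5 CPM and 15.2 to 17.4 CPM (6 of 6), neutrophil markers to 33.2 to 52.8 CPM and 1.38 to 6.09 CPM (8 of 8), dendritic cell markers to 956 to 1044 CPM and 960 to 1027 CPM (2 of 5), and B cell markers to 255 to 335 CPM and 228 to 292 CPM (3 of 7). The neutrophil sum was 1.38 CPM in control replicate 1, against 3.09 and 6.09 CPM in control replicates 2 and 3, so it too was lowest there. Red cell precursor markers summed to 310.1 to 1862 CPM and 25.4 to 32.2 CPM (7 of 7). No marker of these lists was at 0 in all 6 libraries. The part of such cells in the differences of the 10 genes was not tested.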

How the data were processed

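The 6 samples are RNA sequencing libraries made from total RNA. For each library the authors deposited whole-number read counts per gene, not normalized. The submitters' processing notes name STAR 2.7.3a, the mm10 build and HTSeq 0.12.4. Neither the annotation release nor the use of strand is stated there, and unstranded counting would drop reads in stretches shared by genes of opposite strands. The 5 summary lines of each table name no gene and were kept out: reads on no feature (7.32 to 7.61% in Satb1 cKO, 9.18 to 9.50% in control), ambiguous reads (5.51 to 5.57% and 5.40 to 5.43%) and reads with several alignments (2.92 to 3.16% and 3.04 to 3.05%), with 0% on the others.

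Groups and replicate numbers came from the sample titles. Names, positions and exon lengths came from GENCODE M21 (GRCm38), which matched 55141 of 55401 gene identifiers without their version. No pair of libraries held identical values, and every pair of replicates differed beyond sampling noise (chi-square per degree of freedom 2.15 to 7.53). Genes were filtered with edgeR's filterByExpr (minimum count 10, 13364 kept), scaled by TMM and tested with glmQLFit and glmQLFTest with group as the only term (edgeR 4.0.16, R 4.3.3), with Benjamini-Hochberg adjustment over all tested genes and a threshold of 0.05. An SE is the fitted coefficient divided by the root of its F statistic. Levels per kilobase divide CPM by the summed exon length. Ratios of partner genes used log2(CPM + 0.5). Alternatives were other scalings, no filter, DESeq2 1.42.0, a replicate block, leaving out composition-prone genes and leaving out each library. The 10 genes, the lists and the alternatives were chosen with earlier results of these data known. Named genes were the 10, up to 4 called genes of smallest p per direction from each list, the 3 nearest profiles to Tbx21 and Txk, and the tested neighbours of Il18r1, Il18rap, Il12rb2 and Txk. Il23r, Stat4, Ifnar1, Gata3, Fasl, Ccl3, Ccl4, Gbp2, Igtp, Il1r1, Osbpl7, the ligand genes with too few reads and single marker genes were named after their values were seen. Promoter sequences are from RefSeq. Some genes of the lists are not reported here by name.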

Additional observations from a re-analysis of the deposited data

How the results depend on the processing

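Over 12 alternatives, the count of genes called, 5651 with the settings used, ranged from 4671 to 6070, and the count among the 9 tested genes from 8 to 9. The 9 genes kept their direction in all 108 combinations of gene and alternative, and 106 kept their call. The exceptions were both Tbx21, whose adjusted p was 0.13 in DESeq2 (log2 fold change 1.10) and 0.0547 in edgeR without Satb1 cKO replicate 3 (1.11). Leaving out 1 library at a time gave Tbx21 log2 fold changes of 0.68 to 1.46. For the log2 ratio of Tbx21 to Eomes it gave differences of -0.11 to 0.56, with the sign reversed without control replicate 1 (-0.11). The other ratios kept their sign, with 0.59 to 1.45 for Il12rb2 to Il12rb1. Without control replicate 1, an alternative chosen after seeing the data for the lists, 14 of 22 interferon gamma target genes were called in place of 8. Same-numbered libraries did not deviate together (correlations 0.026, -0.0098 and 0.024, and not every library correlated best with its own number). With the replicate block 5563 genes and 9 of the 9 genes were called, the differences of the ratios were as without it (1.80, 1.13, 0.51 and 0.31), and the smallest p that 3 pairs allow is 0.25. Without a filter on low counts Hlx had an adjusted p of 0.0686 in edgeR. The cause of the low levels in control replicate 1 was not tested. Hlx had 17 reads in all, too few for a firm value at this depth.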
